A study of Mus musculus with 8 samples.

Results

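The genes described here are 39 transcripts that mature oligodendrocytes make beside the structural proteins of myelin, such as enzymes of myelin lipids, junction proteins, transcription factors, receptors and cytoskeletal proteins. They were taken by gene symbol from a list that was chosen with earlier results of these data known. Counts set beside those over all genes are therefore descriptions, not an independent test. All 39 were present among the 29442 genes of the deposited table, and all 39 were among the 27612 genes with at least 1 count that were tested. The RNA was extracted from ventral hippocampi, and the mice were C57BL/6 J females, 6 to 8 weeks old. They had received dehydroepiandrosterone (DHEA, an adrenal androgen precursor) at 30 mg/kg/day by subcutaneous injection for 21 days, or sesame oil, the vehicle, for the same 21 days. Each group holds 4 libraries. No genetic change is named for either group, and the labels name no batch, cage or pairing. The series' design text speaks of 6 tissues, and the records of DHEA library 11 and sesame oil library 9 were registered apart from those of the other 6 libraries. The libraries labelled DHEA carry the numbers 3, 4, 7 and 11, those labelled sesame oil the numbers 5, 9, 10 and 16, and values are given in this order throughout. The direction of every difference follows these labels. The study's own table of differentially expressed genes runs in the other direction for every gene that could be matched, and the cause was not tested. The genes matched numbered 167.

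Oligodendrocytes wrap axons in myelin, a membrane rich in cholesterol and in galactolipids made from ceramide. To build and keep it they need lipid enzymes, a cytoskeleton that extends the membrane, iron for their high metabolic rate and gap junctions that link them to astrocytes. The transcription factor Myrf holds the program on in mature cells, while precursors that express Pdgfra keep dividing and supply further oligodendrocytes. In the hippocampus myelin is sparser than in the fiber tracts that border it.

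In the libraries labelled DHEA, 36 of the 39 genes were higher on the log2 scale, and the median log2 fold change of the 39 was 0.29, beside 0.01 over all genes tested. No gene passed the test after adjustment. The edgeR quasi-likelihood test with Benjamini-Hochberg adjustment called 0 of 27612 genes at an adjusted p under 0.05 (0%), the smallest adjusted p of any gene was 0.0569, and the smallest of the 39 was 0.203, for Tmem88b. At an unadjusted edgeR p under 0.05, which is what p under 0.05 means in the counts of genes here, 23 of the 39 were higher in DHEA libraries and 1, Josd2, was lower. Were the labels exchanged, every sign would turn, so that 36 of the 39 would be lower and the 23 would be lower at this p. Over all genes tested the shares higher and lower at this p by the labels were 4.82% and 4.49%, and among the 12780 genes whose mean count was 100 or more, where 37 of the 39 belong, 8.08% were higher at this p. In those 12780 genes a log2 fold change above 0 was found in 53.4%. The 3 genes below 0 were Josd2, Cryab and Tubb4a. DESeq2, a second tool, called 2 of the 39 (Prr5l and Tmem88b) at an adjusted p under 0.05, and limma on log2 FPKM called 0. DESeq2 called 1.21% of the 12623 genes to which it gave an adjusted p, and Klk6 and Ninj2 were not among these. All folds were under 2, and the highest was 1.98, for Klk6. Because the tissue was measured in bulk, more oligodendrocytes in the dissected tissue and more RNA per oligodendrocyte cannot be told apart. The part of uneven dissection was not tested.

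The sequencing depth was between 31483772 and 38038361 counts per library, with 38038361, 36792550, 35748416 and 36206289 in the DHEA libraries and 32757366, 33109760, 35418297 and 31483772 in the sesame oil libraries. The lowest DHEA total was above the highest sesame oil total. Even the scarcest member, Klk6, had a mean count of 20.5. The share of mitochondrial counts was also separated between groups, at 7.29% to 9.34% in DHEA libraries and 6.37% to 7.23% in sesame oil libraries. Across genes, the Spearman correlation of expression relative to the mean with GC content was -0.128, -0.159, -0.0684 and -0.0103 in the DHEA libraries and 0.111, 0.184, 0.0729 and 0.112 in the sesame oil libraries. With every library thinned to the smallest total the median log2 fold change of the 39 was 0.29, and with each library's GC trend removed it was 0.29. The part of mitochondrial RNA in the result was not tested. Nothing in the labels says how litters or days were shared, so p-values measure the spread between these 4 and 4 mice.

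**Figure D1:**
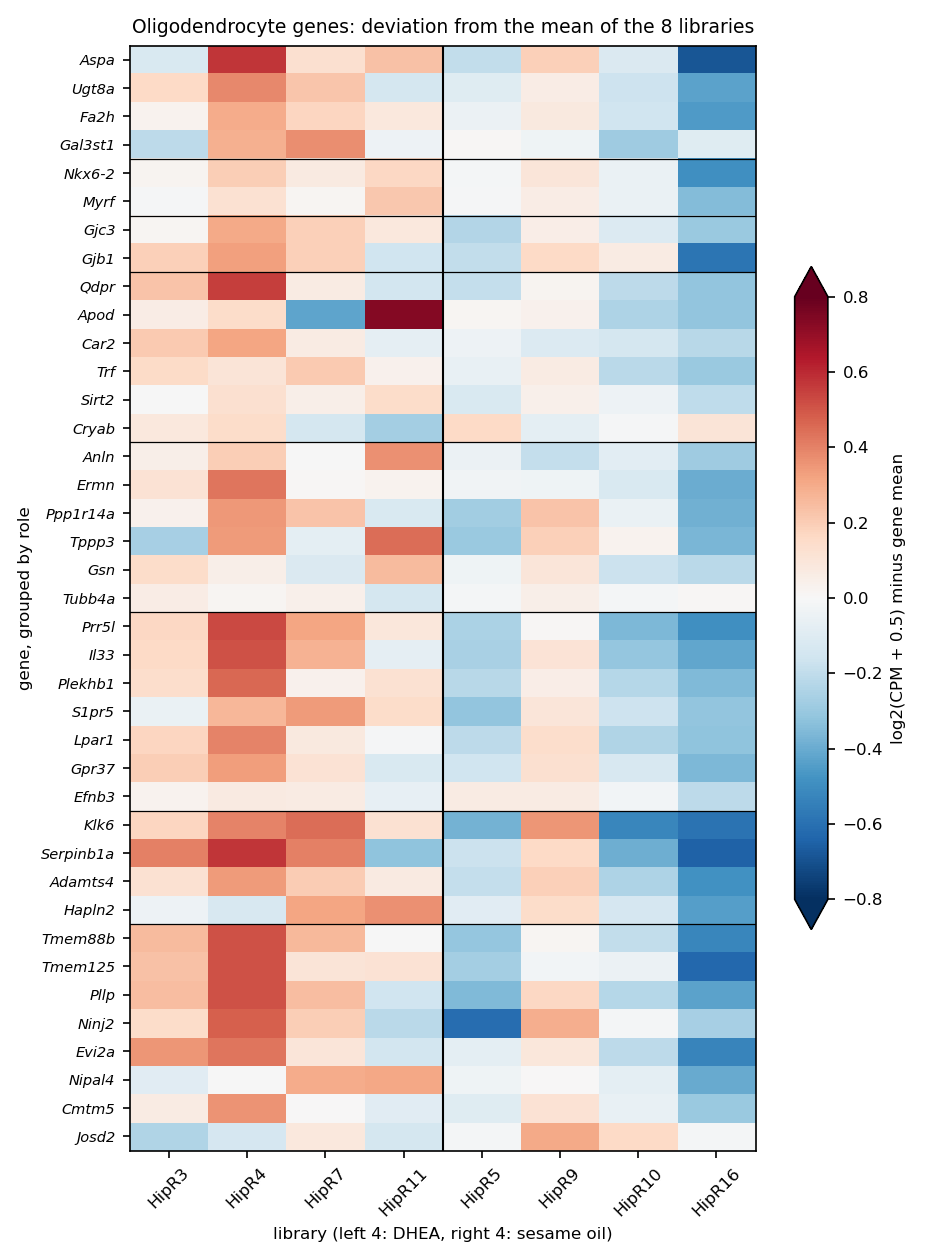
Log2(CPM + 0.5) of each of the 39 genes (vertical axis) in each of the 8 libraries (horizontal axis), minus the gene's mean over the libraries, with the DHEA libraries on the left and the sesame oil libraries on the right. DHEA library 4 held the highest of the 8 values in 24 genes, and sesame oil library 16 the lowest in 33.

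The 39 genes did not divide the libraries evenly. DHEA library 4 was above every sesame oil library in 33 of the 39 genes, while libraries 3, 7 and 11 were so in 20, 24 and 17. Sesame oil library 16 was below every DHEA library in 34 genes, libraries 5 and 10 in 25 and 27, and library 9 in only 5. Library 9 held the highest sesame oil value in 34 genes and exceeded the mean of the DHEA libraries in 12. The summed CPM of the 39 genes was 3286, 3639, 3189 and 3165 in the DHEA libraries and 2865, 3143, 2776 and 2552 in the sesame oil libraries, so the sums of the groups did not overlap, by a narrow margin between DHEA library 11 and sesame oil library 9. These sums are weighted by abundant genes such as Tubb4a. DHEA library 11 stood apart within its group, with the lowest DHEA value in 21 genes and the highest in 8, which were Anln, Sirt2, Hapln2, Myrf, Apod, Gsn, Nipal4 and Tppp3.

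In 4 of the 39 genes (Prr5l, Anln, Ermn and Tmem125) every DHEA library was above every sesame oil library, and in 0 the reverse held. Over all genes tested the shares were 2.42% and 2.62%. For such a gene an exact two-sided permutation test, with 70 ways to allocate the libraries, gives its smallest possible p, 0.0286. This count depended on single libraries. It was 19 when sesame oil library 9 was left out, 14 without DHEA library 11, 8 without DHEA library 3 and 6 without DHEA library 7, and in that last case 1 gene was lower without overlap. Fewer libraries also make such separation more frequent among all genes, of which 4.29%, 4.62%, 3.53% and 5.27% were higher without overlap in these fits. With the GC trend removed the count was 3, without Ermn, and 1.94% of all genes were higher without overlap.

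In the 6 libraries registered together, 3 in each group, edgeR called 9 of the 39 genes at an adjusted p under 0.05, all higher in DHEA libraries, where it called 0.141% of all genes tested. The 9 were Adamts4, Il33, Plekhb1, Pllp, Prr5l, Qdpr, Serpinb1a, Tmem88b and Ugt8a. At p under 0.05, 28 were higher (5.09% of all) and 0 lower, 28 were higher without overlap (7.2% of all), and the median log2 fold change was 0.39. This fit was added after the values were seen, and it leaves out the DHEA library and the sesame oil library that lay nearest to the other group, so its larger numbers are no separate support. The remaining 2 libraries are 1 of each group and allow no test, and what set them apart is not given in the labels.

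Tmem88b, a transmembrane protein gene, had the smallest p of the 39. Because it leads the members, the 250 bases before its RefSeq start are shown first, on chr4:155785875-155786124 (minus strand, GRCm38.p6), followed by those of Anln (chr9:22389207-22389456, minus strand) and Gjc3 (chr5:137963099-137963348, minus strand), the next members by p with 1 listed start. Capitals mark letters that fit a Sox motif, and Sox10 is a Sox factor of this lineage.
Tmem88b: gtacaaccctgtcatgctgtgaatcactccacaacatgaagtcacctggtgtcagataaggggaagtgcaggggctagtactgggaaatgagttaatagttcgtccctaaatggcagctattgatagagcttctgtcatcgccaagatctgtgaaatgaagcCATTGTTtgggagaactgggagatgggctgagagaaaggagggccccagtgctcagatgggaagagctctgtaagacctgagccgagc
Anln: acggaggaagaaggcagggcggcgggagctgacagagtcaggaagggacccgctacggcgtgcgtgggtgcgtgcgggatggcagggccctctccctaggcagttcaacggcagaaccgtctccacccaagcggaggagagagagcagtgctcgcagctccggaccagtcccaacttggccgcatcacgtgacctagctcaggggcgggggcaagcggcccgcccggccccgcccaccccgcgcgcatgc
Gjc3: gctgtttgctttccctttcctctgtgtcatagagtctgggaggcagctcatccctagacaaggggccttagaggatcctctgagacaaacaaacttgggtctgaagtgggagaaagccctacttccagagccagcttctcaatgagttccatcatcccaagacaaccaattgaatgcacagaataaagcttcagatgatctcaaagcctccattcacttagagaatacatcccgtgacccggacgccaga
The 7 capitals in Tmem88b, which begin 88 bases before the start, hold 2 overlapping matches on the opposite strand, ACAATG and AACAAT. Neither Anln nor Gjc3 held a match in the window searched, from 250 bases before to 50 after the start, which says only that these letters are not there. RefSeq lists 44 promoters for 29 of the 39 genes. The letters ACAAAG, or else the letters ACAATG, or instead the letters AACAAT, on either strand, stood in 18 of these 44 (40.9%) and in 33.2% of all 32851 promoters of the table. The letters CTGGCAC or CTGGTAC, given for Myrf, stood in 5 of the 44 (11.4%; Hapln2, Lpar1, Nipal4, S1pr5 and Tmem125) and in 7.1% of all. A match of this kind is a description of letters, not of binding.

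Among membrane proteins, Tmem88b measured 98.8, 118, 99.0 and 82.6 CPM (counts per 1000000 after TMM scaling) in the DHEA libraries and 66.6, 83.6, 72.2 and 57.4 CPM in the sesame oil libraries. Only sesame oil library 9 reached above the lowest DHEA value. The means were 99.6 ± 14.5 against 69.9 ± 10.97 CPM (SD over 4 libraries), a 1.42-fold difference, with a log2 fold change of 0.51 ± 0.11 (SE; edgeR adjusted p = 0.203, exact permutation p = 0.0571). Pllp, which encodes the myelin membrane protein plasmolipin, measured 57.8, 69.5, 57.8 and 43.5 CPM in the DHEA libraries and 38.1, 54.7, 41.4 and 36.0 CPM in the sesame oil libraries, and again only library 9 overlapped the DHEA range, here above DHEA library 11 alone. The log2 fold change of Pllp was 0.43 ± 0.13 (edgeR adjusted p = 0.296, exact permutation p = 0.0571). Tmem125, named after its values were seen because its groups did not overlap, stood at 7.67, 9.40, 6.96 and 7.03 CPM against 5.25, 6.34, 6.22 and 3.999 CPM, a log2 fold change of 0.51 ± 0.16 (edgeR adjusted p = 0.325). Evi2a reached 21.3 ± 3.82 against 16.5 ± 2.98 CPM and a log2 fold change of 0.37 ± 0.14 (exact permutation p = 0.114). Its unadjusted p was above 0.05 in 4 of 19 alternative fits, 8 of which left out 1 library each, and that of Pllp in 1. Evi2a lies within an intron of Nf1 on the opposite strand, and how strand was treated in counting is not stated, so its reads and those of Nf1 may be mixed.

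Josd2, a deubiquitinating enzyme, was the one member that was lower at an unadjusted p under 0.05. Its values were 19.9, 21.5, 25.0 and 21.4 CPM in the DHEA libraries and 23.4, 29.2, 26.4 and 23.4 CPM in the sesame oil libraries, so that DHEA library 7 lay within the sesame oil range. The log2 fold change was -0.22 ± 0.10 (edgeR adjusted p = 0.503, exact permutation p = 0.0857), and the unadjusted edgeR p was above 0.05 once DHEA library 3 or 11 or sesame oil library 9 or 10 was left out, and with the GC trend removed. Cmtm5, Ninj2 and Nipal4, other membrane proteins, had p above 0.05. Cmtm5 had a log2 fold change of 0.18 ± 0.11, or 0.07 without DHEA library 4, and its p was under 0.05 without DHEA library 11 or sesame oil library 9. Ninj2, a cell adhesion protein, was scarce, at 1.72, 2.30, 1.80 and 1.23 CPM against 0.815, 1.96, 1.49 and 1.17 CPM, a log2 fold change of 0.37 ± 0.30 with overlapping groups. It was 0.20 without sesame oil library 5 and 0.60 without sesame oil library 9. Nipal4, related to magnesium transporters, stood at 3.58, 3.84, 4.85 and 4.90 CPM against 3.74, 3.85, 3.62 and 2.79 CPM, which also overlapped (log2 fold change 0.29 ± 0.18, or 0.19 without sesame oil library 16). The 8 membrane and other proteins had a median log2 fold change of 0.37, with 4 higher and 1 lower at p under 0.05.

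**Figure D2:**
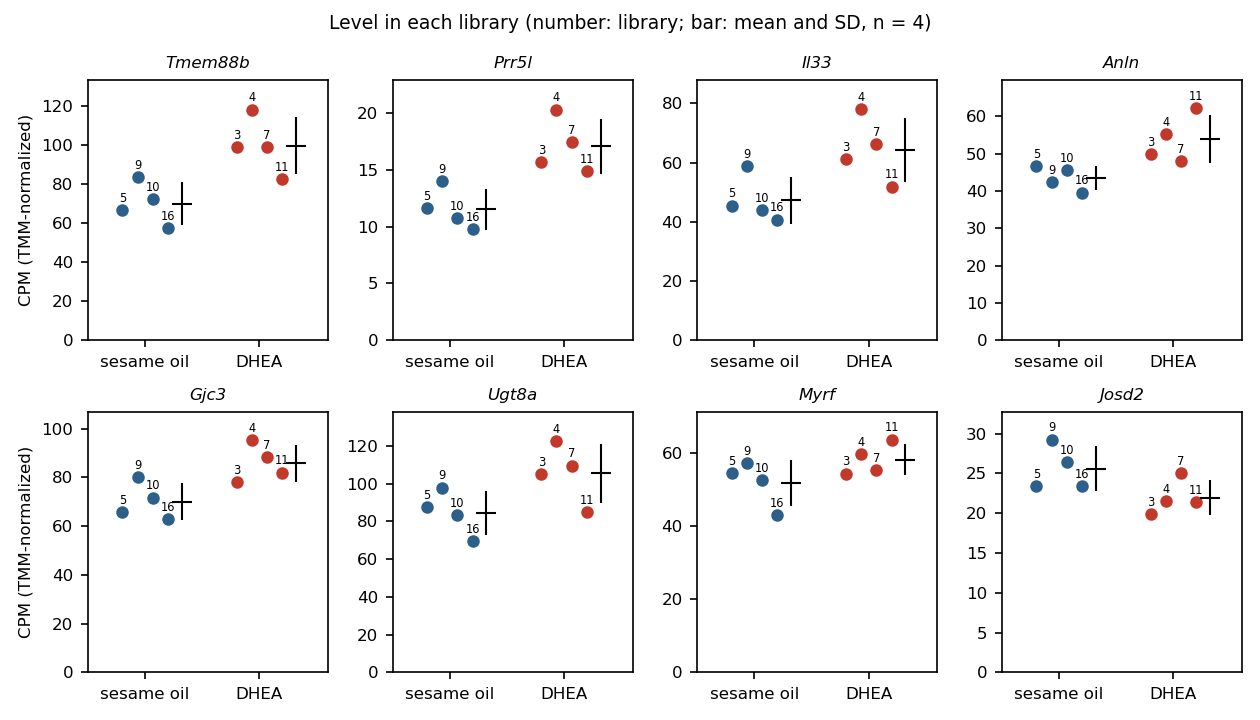
CPM (vertical axis, from 0) of Tmem88b, Prr5l, Il33, Anln, Gjc3, Ugt8a, Myrf and Josd2 in each library by group, with the group mean and SD. Prr5l and Anln are the panels without overlap between groups, and Josd2 is the panel in which the sesame oil mean is the higher one.

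The 7 receptors, ligands and signalling proteins included 6 higher genes at p under 0.05, with a median log2 fold change of 0.36. Prr5l, whose product binds the mTOR kinase complex that controls the actin cytoskeleton, measured 15.6, 20.3, 17.4 and 14.9 CPM in DHEA libraries and 11.6, 14.0, 10.7 and 9.74 CPM in sesame oil libraries. No sesame oil value reached the lowest DHEA value, and the log2 fold change was 0.57 ± 0.13 (edgeR adjusted p = 0.230, exact permutation p = 0.0286). Plekhb1, a lipid-binding protein of internal membranes, was abundant at 347, 431, 321 and 342 CPM in the DHEA libraries and 269, 326, 267 and 245 CPM in the sesame oil libraries. Library 9 alone lay within the DHEA range, just above DHEA library 7. For Plekhb1 the means were 360.2 ± 48.6 against 277 ± 34.2 CPM, a log2 fold change of 0.38 ± 0.09 (edgeR adjusted p = 0.240, exact permutation p = 0.0571).

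Il33 encodes an alarmin cytokine that is stored in the nuclei of oligodendrocytes and astrocytes. It measured 61.1, 78.0, 66.3 and 51.8 CPM in the DHEA libraries and 45.4, 58.8, 44.0 and 40.7 CPM in the sesame oil libraries, and 3 of the 4 sesame oil libraries were below every DHEA library. The log2 fold change of 0.44 ± 0.12 (edgeR adjusted p = 0.245, exact permutation p = 0.0571) kept its direction whichever library was left out, at 0.33 to 0.57. Lpar1 and S1pr5, receptors of the lipid mediators lysophosphatidic acid and sphingosine phosphate, had log2 fold changes of 0.32 ± 0.10 (exact permutation p = 0.0857) and 0.36 ± 0.12 (exact permutation p = 0.0571). Gpr37, a G protein-coupled receptor of oligodendrocytes, had one of 0.26 ± 0.10 (exact permutation p = 0.114), and its p was above 0.05 in 4 of the 19 alternatives. Efnb3, an ephrin that neurons make as well, was nearly level between groups at 145 ± 6.15 against 141 ± 12.3 CPM, a log2 fold change of 0.04 ± 0.07 that was -0.02 without sesame oil library 16.

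In the cytoskeleton group Anln and Ermn, both actin-binding proteins, separated the groups, and Ermn did so no longer with the GC trend removed. Anln, which recruits septins and is also used in cell division, measured 49.8, 55.3, 48.0 and 62.3 CPM in the DHEA libraries and 46.6, 42.3, 45.6 and 39.6 CPM in the sesame oil libraries. The gap between DHEA library 7 and sesame oil library 5 was small, and the highest value was that of DHEA library 11, unlike in most of the 39 genes. The log2 fold change was 0.31 ± 0.09 (edgeR adjusted p = 0.275, exact permutation p = 0.0286). Ermn, found in the outer cytoplasm of myelin, measured 114, 141, 106 and 107 CPM in the DHEA libraries and 103, 103, 96.4 and 79.7 CPM in the sesame oil libraries. Sesame oil libraries 5 and 9 came close below the DHEA range, and library 16 was lowest by a wide margin, with a log2 fold change of 0.29 ± 0.09 (edgeR adjusted p = 0.321, exact permutation p = 0.0286) that was 0.18 without DHEA library 4.

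Gsn, which severs actin filaments, Tppp3, which binds tubulin, and Ppp1r14a, an inhibitor of myosin phosphatase, had log2 fold changes of 0.16, 0.24 and 0.25, each with p above 0.05. This p was under 0.05 in 3, 2 and 2 of the 19 alternatives. Without DHEA library 11 the log2 fold change was 0.11 for Gsn and 0.12 for Tppp3, and for Ppp1r14a it was 0.15 without sesame oil library 16 and 0.38 without sesame oil library 9. Tubb4a, the beta tubulin of myelinating cells that neurons also make, had the log2 fold change nearest to 0. It measured 527, 510.0, 519.7 and 457 CPM in the DHEA libraries and 499.7, 520.2, 500.2 and 507 CPM in the sesame oil libraries, with a log2 fold change of -0.01 ± 0.06 whose sign was reversed with the GC trend removed (0.03) and without DHEA library 11 (0.03) or sesame oil library 9 (0.00). Its reads may be shared with other beta tubulin genes of near-identical sequence. With its FPKM of 246 it was the most abundant of the 39, and the group median of the 6 cytoskeletal genes was 0.24.

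The 6 proteins of iron, acid-base, redox and stress had 4 members higher at p under 0.05 and a median log2 fold change of 0.26. Car2, the carbonic anhydrase of oligodendrocytes, measured 226, 243, 204 and 186 CPM in the DHEA libraries and 189, 181, 177 and 167 CPM in the sesame oil libraries. DHEA library 11 alone fell within the sesame oil range, below library 5, and the log2 fold change was 0.27 ± 0.08 (edgeR adjusted p = 0.275, exact permutation p = 0.0571). Trf, the iron carrier transferrin, measured 316, 307, 329 and 292 CPM in the DHEA libraries and 274, 298, 246 and 232 CPM in the sesame oil libraries, a log2 fold change of 0.24 ± 0.07 (edgeR adjusted p = 0.296, exact permutation p = 0.0571). Here too only library 9 overlapped, lying above DHEA library 11. Transferrin is made by the choroid plexus as well, whose summed marker level was 4644, 105, 2304 and 4299 CPM in the DHEA libraries and 3224, 535, 2117 and 2346 CPM in the sesame oil libraries. The part of the choroid plexus in the Trf values was not tested.

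Qdpr, which recycles the cofactor tetrahydrobiopterin, measured 181, 228, 162 and 140.0 CPM in the DHEA libraries and 136, 157, 134 and 124 CPM in the sesame oil libraries. Library 4 was far above the rest and library 11 was below sesame oil library 9, which left an SD of 37.3 CPM in the DHEA group, and the log2 fold change was 0.37 ± 0.11 (edgeR adjusted p = 0.293, exact permutation p = 0.0571). Without DHEA library 4 it was 0.22, and under robust moderation the unadjusted edgeR p was above 0.05. Sirt2, a deacetylase of tubulin, was higher by the small log2 fold change of 0.16 ± 0.07 (exact permutation p = 0.0571). Its unadjusted edgeR or limma p was above 0.05 in 7 of the 19 alternatives, which were scaling by library totals only, both limma fits, and leaving out DHEA library 4 or 11 or sesame oil library 5 or 16. Apod, a lipid-binding apolipoprotein, varied widely between mice, with 199, 211, 142 and 318 CPM in DHEA libraries and 193, 195, 161 and 153 CPM in sesame oil libraries. Its log2 fold change of 0.31 ± 0.16 was 0.07 without DHEA library 11 and 0.47 without DHEA library 7, the unadjusted edgeR p was under 0.05 without DHEA library 3 or 7, and the exact permutation p over all libraries was 0.400. Cryab, a small heat shock protein that astrocytes also make, had a log2 fold change of -0.08 ± 0.09 (exact permutation p = 0.429), which was -0.16 without DHEA library 4 and -0.01 without DHEA library 11.

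**Figure D3:**
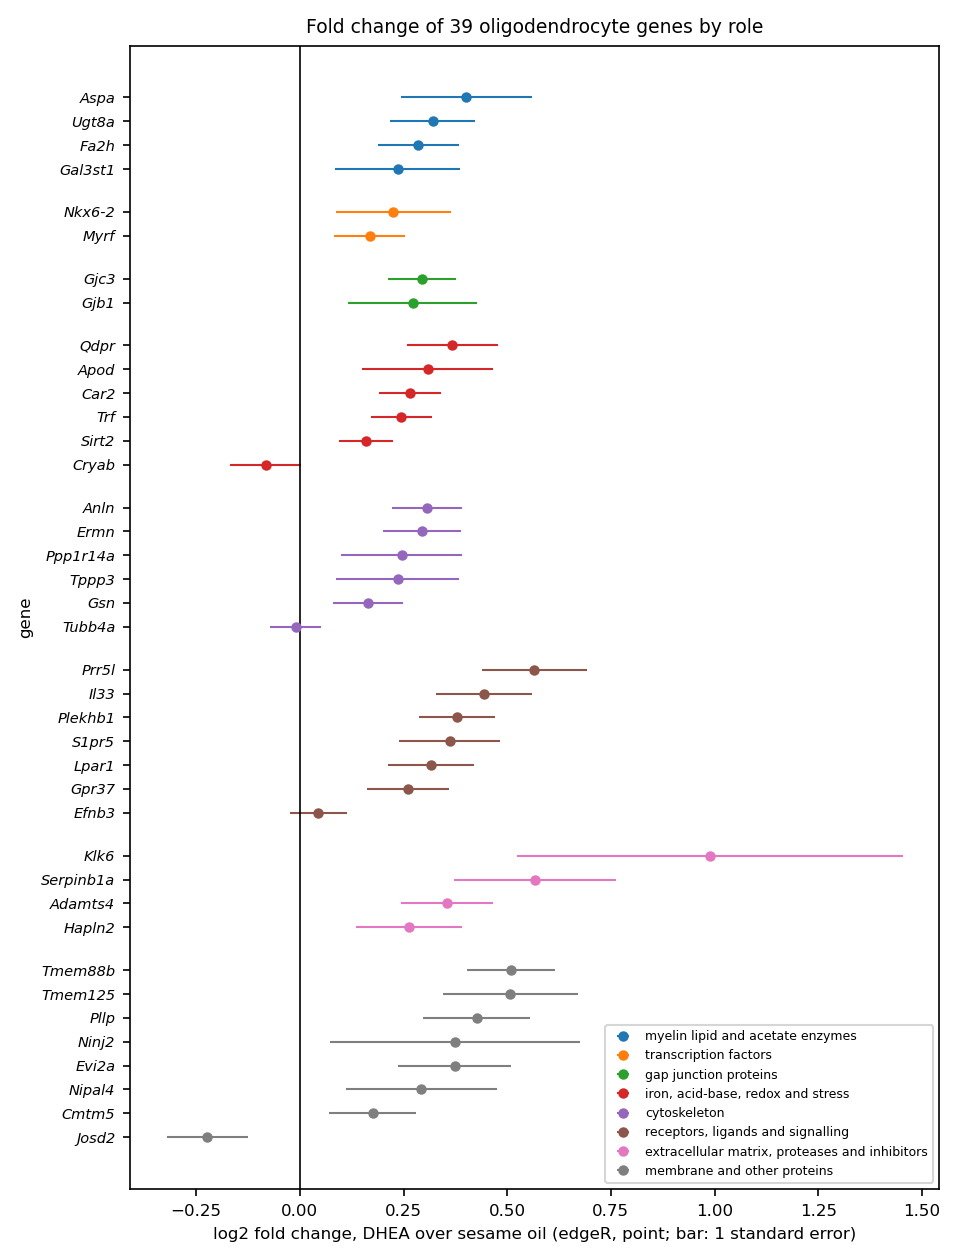
Log2 fold change, DHEA over sesame oil (horizontal axis), of each of the 39 genes with its standard error as bars, grouped by role on the vertical axis. In this plot 36 genes lie to the right of 0, Klk6 has the largest value and the widest error, and Josd2, Cryab and Tubb4a lie to the left.

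The enzymes of myelin lipids were higher in the mean in each case. Ugt8a, which adds galactose to ceramide, measured 105, 123, 109.5 and 85.0 CPM in the DHEA libraries and 87.5, 97.7, 83.3 and 69.3 CPM in the sesame oil libraries, and DHEA library 11 fell below sesame oil libraries 5 and 9. Its log2 fold change was 0.32 ± 0.10 (edgeR adjusted p = 0.328, exact permutation p = 0.0857). Fa2h, which hydroxylates the fatty acid of these lipids, stood at 41.9, 50.7, 46.5 and 43.8 CPM against 39.9, 43.4, 36.8 and 29.9 CPM, a log2 fold change of 0.29 ± 0.10 (edgeR adjusted p = 0.366, exact permutation p = 0.0571). For Fa2h only library 9 overlapped, above DHEA library 3, and without sesame oil library 16 the log2 fold change was 0.19 with an unadjusted edgeR p above 0.05. Gal3st1, which turns galactosylceramide into sulfatide, had 6.27, 9.03, 9.63 and 7.09 CPM in DHEA libraries and 7.36, 7.11, 5.92 and 6.79 CPM in sesame oil libraries. These ranges were mixed, and the log2 fold change was 0.24 ± 0.15 (edgeR adjusted p = 0.643, exact permutation p = 0.257). The log2 fold change of Gal3st1 was 0.14 without DHEA library 7 and 0.34 without DHEA library 3, the latter with an unadjusted edgeR p under 0.05.

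Aspa splits N-acetylaspartate from neurons into acetate, used for lipid synthesis, and aspartate. It measured 17.5, 28.7, 20.9 and 22.6 CPM in the DHEA libraries and 16.6, 21.9, 17.6 and 11.7 CPM in the sesame oil libraries. The groups overlapped in DHEA libraries 3 and 7 and sesame oil libraries 9 and 10, with a log2 fold change of 0.40 ± 0.16 (edgeR adjusted p = 0.437, exact permutation p = 0.143). It was 0.25 without DHEA library 4 and 0.26 without sesame oil library 16, both with an edgeR p above 0.05. The unadjusted p was also above 0.05 with the GC trend removed, under robust moderation, with the filterByExpr filter and in both limma fits, 7 of the 19 alternatives in all. Of the wider list of 20 genes of sphingolipid and galactolipid metabolism, 6 were higher at p under 0.05 and 0 were lower, 13 had a log2 fold change above 0 and the median was 0.04. Elovl7, which elongates fatty acids, had the largest value among those 6 (log2 fold change 0.46 ± 0.14, exact permutation p = 0.114), and Cers2, the ceramide synthase for very long chains, had 0.17 ± 0.07 (exact permutation p = 0.0571). Among the DHEA libraries Elovl7 was lowest in library 4, unlike most of the 39 genes. In 3 of the 20 genes the groups were higher without overlap (2.42% of all genes). In 1, Cers6, they were lower (2.62% of all), with a log2 fold change of -0.13 ± 0.06. Galc and Arsa, which break down galactosylceramide and sulfatide, were at -0.09 ± 0.08 and -0.10 ± 0.09 on the log2 scale. The most abundant gene of that list was Psap (512 FPKM), the precursor of saposins, which neurons make as well.

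Neither transcription factor of the 39 had an unadjusted edgeR p under 0.05. Myrf, the regulator of mature oligodendrocytes, measured 54.3, 59.7, 55.3 and 63.7 CPM in the DHEA libraries and 54.4, 57.2, 52.7 and 43.0 CPM in the sesame oil libraries. DHEA libraries 3 and 7 lay below sesame oil library 9, and sesame oil library 16 was lowest, with a log2 fold change of 0.17 ± 0.08 (edgeR adjusted p = 0.556, exact permutation p = 0.171). Nkx6-2, a homeodomain factor, had 8.45, 9.62, 8.79 and 9.39 CPM in the DHEA libraries against 8.24, 8.95, 8.02 and 5.78 CPM, a log2 fold change of 0.23 ± 0.14 (exact permutation p = 0.0857). The values of DHEA libraries were close to each other and those of sesame oil libraries differed mainly in library 16. Without that library the log2 fold change was 0.08 for Myrf and 0.10 for Nkx6-2, and without sesame oil library 9 it was 0.22 and 0.30. The unadjusted edgeR p of Myrf was under 0.05 without DHEA library 3 or 7 or sesame oil library 9, with the GC trend removed and under robust moderation, while that of Nkx6-2 was above 0.05 under every alternative. Of 9 further transcription factors of the lineage, 9 had a log2 fold change above 0, 4 were higher at p under 0.05, and the median was 0.19. Olig1, the most abundant of them at 39.1 FPKM, had a log2 fold change of 0.20 ± 0.08 (exact permutation p = 0.0857), Nkx2-2 one of 0.52 ± 0.23 (exact permutation p = 0.114) and Sox10 one of 0.09 ± 0.10 (exact permutation p = 0.543). The summed CPM of the 9 factors was 279, 303, 274 and 273 in the DHEA libraries and 249, 269, 256 and 238 in the sesame oil libraries, without overlap.

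Of the 2 connexins of oligodendrocytes among the 39, 1 was higher at p under 0.05. Gjc3 measured 78.0, 95.3, 88.2 and 81.9 CPM in the DHEA libraries and 65.6, 80.1, 71.6 and 62.8 CPM in the sesame oil libraries, where library 9 lay above DHEA library 3 alone. The log2 fold change was 0.29 ± 0.08 (edgeR adjusted p = 0.275, exact permutation p = 0.0571). Gjb1, which pairs with astrocyte connexins, stood at 12.1, 13.3, 12.1 and 9.36 CPM against 9.12, 11.8, 11.02 and 6.85 CPM, a log2 fold change of 0.27 ± 0.15 (edgeR adjusted p = 0.597, exact permutation p = 0.171). Sesame oil libraries 9 and 10 overlapped with DHEA library 11 in this gene, and without sesame oil library 16 its log2 fold change was 0.13, against 0.24 for Gjc3. Without DHEA library 11 or sesame oil library 9 that of Gjb1 was 0.37 and 0.38, with an unadjusted edgeR p under 0.05. Of the astrocyte partners, Gjb6 had a log2 fold change of 0.28 ± 0.12 (exact permutation p = 0.171) and Gja1, at 79.8 FPKM the most abundant of the 5 partner genes, had one of 0.17 ± 0.07 (exact permutation p = 0.0857). Of those 5 partner genes 2 were higher at p under 0.05, and the median log2 fold change was 0.13.

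The matrix, protease and inhibitor genes had the highest median of the role groups, 0.46 over 4 genes, of which 3 were higher at p under 0.05. Adamts4, a protease that cleaves chondroitin sulfate proteoglycans, measured 47.7, 55.7, 50.5 and 46.0 CPM in the DHEA libraries and 38.3, 50.1, 36.8 and 31.1 CPM in the sesame oil libraries. Library 9 exceeded DHEA libraries 3 and 11, and the log2 fold change was 0.35 ± 0.11 (edgeR adjusted p = 0.307, exact permutation p = 0.0857). Klk6, a serine protease of oligodendrocytes, had the largest log2 fold change of the 39, 0.99 ± 0.46 (edgeR adjusted p = 0.531, exact permutation p = 0.0857). Its counts were 25, 31, 33 and 23 in the DHEA libraries and 10, 28, 8 and 6 in the sesame oil libraries. Library 9 lay within the DHEA range and the other 3 sesame oil libraries were lower, so the estimate varied from 0.76 to 1.68 as single libraries were left out, the highest of these without library 9, and the unadjusted edgeR p was above 0.05 without DHEA library 4 or 7 or sesame oil library 5, 10 or 16. It was also above 0.05 with scaling by library totals only, with at least 10 counts required, with the filterByExpr filter and after thinning, 9 of the 19 alternatives in all. On log2(FPKM + 1) the log2 fold change was 0.27, since the added 1 exceeds the level of this gene. Serpinb1a, an inhibitor of serine proteases with close relatives in the genome, had a log2 fold change of 0.57 ± 0.20 (exact permutation p = 0.0857). Hapln2, a link protein of the matrix at nodes of Ranvier, had one of 0.26 ± 0.13 (exact permutation p = 0.171). It ran from 0.16 without sesame oil library 16 to 0.36 without sesame oil library 9, and the unadjusted edgeR p was under 0.05 without DHEA library 3 or 4 or sesame oil library 9 and with the GC trend removed.

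Levels between genes are compared in FPKM, which divides by length. Tubb4a, Trf and Qdpr headed the 39, with 243 ± 13.6 and 249.5 ± 6.00 FPKM for Tubb4a, 132 ± 7.31 and 114 ± 13.6 FPKM for Trf and 126 ± 24.0 and 99.8 ± 10.8 FPKM for Qdpr in the DHEA and sesame oil groups (mean ± SD). Tubb4a was well above the next genes. Within the DHEA group the values of Qdpr overlapped with those of both Trf and Car2 (109 ± 10.5 and 92.6 ± 5.23 FPKM). Within each library, Trf and Qdpr were both above Car2. At the lower end stood Klk6 with 0.505 ± 0.0930 and 0.259 ± 0.202 FPKM, Nipal4 with 1.29 ± 0.231 and 1.07 ± 0.154 FPKM and Ninj2 with 1.35 ± 0.315 and 1.07 ± 0.386 FPKM, and the last pair did not differ beyond its spread.

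The structural myelin genes, of which none belongs to the 39, had a higher median than the 39. Of 13 such genes 13 had a log2 fold change above 0, 11 were higher at p under 0.05, 4 had groups without overlap and the median was 0.38, with 0 at an adjusted p under 0.05. Tspan2 and Mal had 0.59 ± 0.09 and 0.55 ± 0.09, each at an adjusted p of 0.0647 in edgeR, against 0.51 ± 0.11 for Tmem88b at 0.203. Mbp, which encodes myelin basic protein, had 0.39 ± 0.10. The summed CPM of the 13 was 7123, 8952, 7044 and 7373 in the DHEA libraries and 5675, 6803, 5670.5 and 4828 in the sesame oil libraries, with library 4 highest and library 16 lowest, as for the 39. Precursor genes had a lower median of 0.17. Of 10 genes, 10 were above 0, 4 were higher at p under 0.05 and 3 did not overlap. Pdgfra, the receptor that marks precursors, had 0.25 ± 0.07 (exact permutation p = 0.0286), Enpp6, a marker of newly formed oligodendrocytes, had 0.64 ± 0.14 (edgeR adjusted p = 0.222), and Bcas1, the most abundant at 58.4 FPKM, had 0.39 ± 0.12. Values were smaller for Cspg4 (0.07 ± 0.10), Ptprz1 (0.07 ± 0.07) and Gpr17 (0.10 ± 0.08), each with p above 0.05. The difference between these lists and the 39 was not tested.

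**Figure D4:**
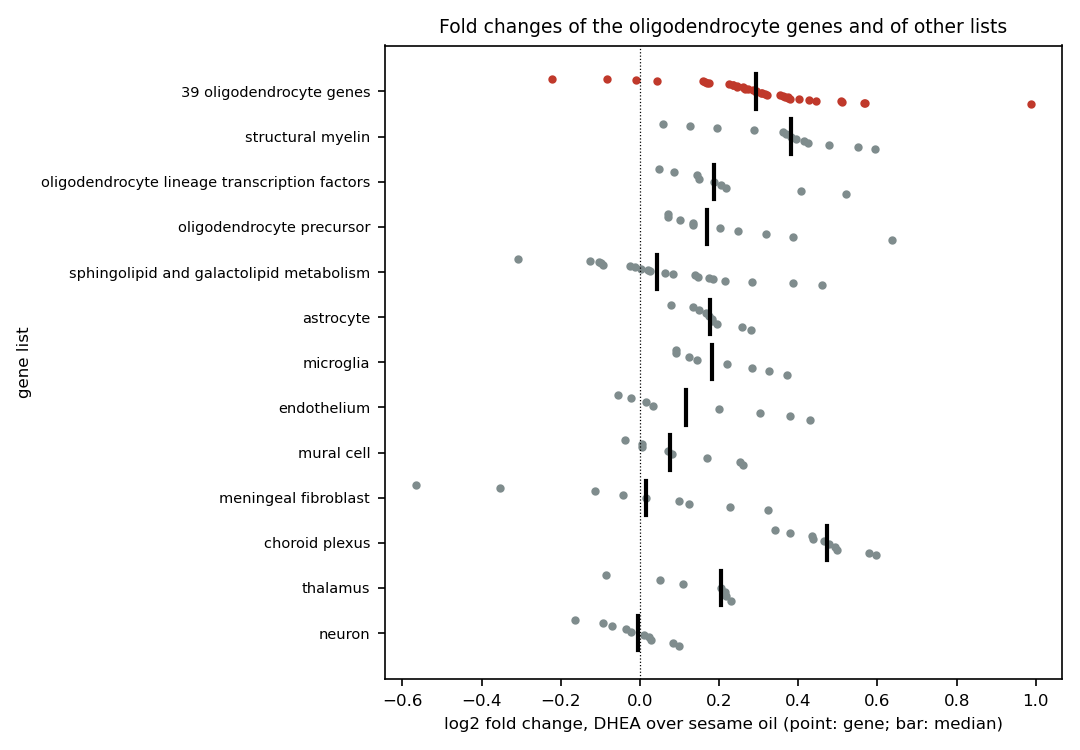
Log2 fold change, DHEA over sesame oil (horizontal axis), of each gene as a point. The 39 genes and the other gene lists stand one below another on the vertical axis, with the median of each list as a bar. The median was 0.29 for the 39, 0.38 for structural myelin, 0.18 for astrocytes and microglia and -0.01 for neurons.

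Astrocyte and microglia markers also had median log2 fold changes above 0, smaller than that of the 39 genes. The median of neuron markers was -0.01, and none of these markers had an adjusted p under 0.05 in edgeR. Of 10 astrocyte genes, 10 had a log2 fold change above 0 and 7 were higher at p under 0.05, with a median of 0.18. Their summed CPM was 6174, 7345, 6589 and 6539 in the DHEA libraries and 5450.4, 6270.5, 5789 and 6067 in the sesame oil libraries, led by Slc1a2 (291 FPKM), and sesame oil library 9 was above DHEA library 3. Of 8 microglia genes, 8 were above 0 and 4 were higher at p under 0.05, the median was 0.18, and the summed CPM was 388, 455, 363 and 342 against 310.0, 363, 337 and 329.7, where sesame oil library 9 was above DHEA libraries 7 and 11. Of 10 neuron genes, 5 were above 0, 0 were higher and 1 was lower at p under 0.05, and the median was -0.01. The lower gene was Rbfox3, whose groups did not overlap (log2 fold change -0.16 ± 0.05, edgeR adjusted p = 0.348), where 2.62% of all genes were lower without overlap. The neuron sum was 10191, 10279, 9594 and 9657 CPM in the DHEA libraries and 9814, 9716, 10058 and 10260.0 CPM in the sesame oil libraries, led by Snap25 (715 FPKM), so the groups overlapped. No marker in these lists was at 0 in all libraries. The part of astrocytes and microglia in the difference of the 39 genes was not tested.

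Peripheral myelin was close to absent. Of 4 Schwann cell genes, the most abundant was Prx (0.110 FPKM), and their summed CPM was 1.08, 1.23, 1.05 and 0.821 in the DHEA libraries and 0.543, 0.711, 0.757 and 1.02 in the sesame oil libraries. Choroid plexus genes varied between libraries far more than the 39 did. Of 10, 10 were above 0, 0 had p under 0.05 and the median was 0.47, but DHEA library 4, the highest library for the 39 genes, was the lowest for these, and sesame oil library 9 was the lowest of its group. The plexus list was led by Ttr (1601 FPKM), the carrier of thyroid hormone.

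**Figure D5:**
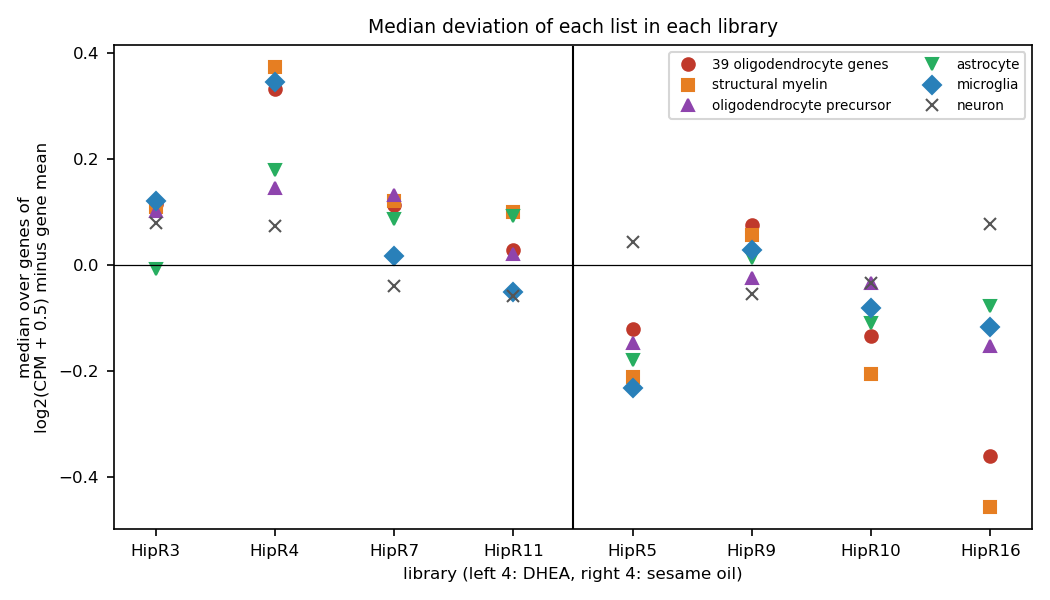
Median deviation of a list's genes from their mean over the libraries, in log2(CPM + 0.5) (vertical axis), for each library (horizontal axis) and gene list. For the 39 genes it was 0.33 in DHEA library 4 and -0.36 in sesame oil library 16, and for structural myelin genes 0.37 and -0.46 in the same libraries.

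By library, the median deviation of the 39 genes from their mean was 0.12, 0.33, 0.11 and 0.03 in the DHEA libraries and -0.12, 0.08, -0.13 and -0.36 in the sesame oil libraries on the log2 scale. Structural myelin genes stood at 0.11, 0.37, 0.12 and 0.10 and at -0.21, 0.06, -0.21 and -0.46. In both lists DHEA library 4 was highest and sesame oil library 16 lowest. Sesame oil library 9 was above DHEA library 11 for the 39 and below it for structural myelin, so the groups overlapped in the first list only. Astrocyte genes in libraries 4 and 16 stood at 0.18 and -0.08, and neuron genes at 0.07 and 0.08. Microglia genes stood at 0.35 and -0.12 in these libraries, and endothelial genes at 0.21 and -0.13. The libraries that lie farthest apart in the 39 genes therefore differed little in the median of the neuron genes. Single neuron genes differed in both directions between libraries 4 and 16, such as Stmn2 (363 and 298 CPM) and Rbfox3 (225 and 255 CPM).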

How the data were processed

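RNA was sequenced from 8 hippocampal samples, 4 labelled DHEA and 4 labelled sesame oil. For each gene the authors deposited the raw read count and also FPKM values, which divide the counts by library total and gene length. The submitters' processing notes name fastp, HISAT2, HTSeq and the genome build GRCm39. Tool versions, annotation and the strand setting of counting are not given in the sources used here.

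Counts were normalized by TMM and fitted with the quasi-likelihood model of edgeR 4.0.16 (R 4.3.3; prior count 0.125) for all genes with at least 1 count, with Benjamini-Hochberg adjustment over all of them and an adjusted p under 0.05 as the threshold. Single genes were also given an exact permutation test (two-sided) on log2(CPM + 0.5). A standard error is the log2 fold change divided by the square root of its F statistic. Total counts were 31483772 to 38038361 per library, and no 2 libraries of the same group agreed within sampling noise. FPKM served for levels between genes.

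The 39 genes and all gene lists were chosen with earlier results of these data known. Values in every library are given for members with an unadjusted p under 0.05 (at most the 12 smallest in each direction), for the 3 highest and 3 lowest in FPKM, for the largest log2 fold change in each direction, and for Myrf, Nkx6-2, Ugt8a, Gal3st1, Fa2h, Aspa, Gjb1 and Gjc3. Values in every library are also given for Tmem125 and Apod, which were chosen after their values were seen.

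Alternatives were DESeq2 1.42.0, RLE normalization, library totals only, at least 10 counts over the libraries, filterByExpr, robust moderation, a prior count of 1, limma-trend of limma 3.58.1 with 1 or 0.1 added to FPKM before taking log2, thinning to the smallest total, removal of each library's GC trend (lowess, span 0.3, GC content taken from GENCODE transcripts for 15594 of the 16813 genes whose mean count was 10 or more, and for all 39), and leaving out each library. The count of adjusted calls under the alternatives other than DESeq2 and left-out libraries, and a fit of the 6 libraries registered together, were added after the data were seen. Promoters came from RefSeq on GRCm38.p6, a build other than that of the counts, and were used for their letters only. The study's table of differentially expressed genes was read only for its sign against the labels. The scripts were tested on simulated counts. Single values of some genes of the lists are not reported here.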

Additional observations from a re-analysis of the deposited data

Results flagged for a closer look

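Among the 4 DHEA libraries, library 3 stood below the others in the summed CPM of 7 genes of the thalamus, a region next to the hippocampus. The values were 183, 216, 211 and 217 CPM in the DHEA libraries and 194, 194, 170 and 182 CPM in the sesame oil libraries. The gap of DHEA library 3 to its nearest neighbor was 0.84 of the group's whole range, above Dixon's critical value for 4 samples. This was 1 of 114 groups of libraries examined in this way, where chance would give about 5.7. None of the 39 oligodendrocyte genes was singled out in either group.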

How the results depend on the processing

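Under 19 alternatives, 8 of which left out 1 library each, the 39 oligodendrocyte genes kept a positive median log2 fold change (0.29 as reported). It was 0.23 to 0.29 under the 11 other settings and 0.22 to 0.36 with a library left out, and 35 to 37 genes were above 0 in all of these. The number higher at p under 0.05 (23) was 16 to 25 under the other settings, where 3.59% to 5.91% of all genes were, and 17 to 30 with a library left out, where 3.31% to 6.51% were. The number with an adjusted p under 0.05 was 2 with DESeq2, and 0 to 1 with a library left out (Plekhb1 without DHEA library 7, Tmem88b without DHEA library 11), against 0 as reported. Over all genes 93 of 27264 and 12 of 27288 were called in those last fits. The number lower at p under 0.05 was 0 with the GC trend removed and 0 to 1 with a library left out. Genes higher without overlap numbered 4 to 19 with a library left out (3.25% to 5.27% of all genes), and genes lower without overlap 0 to 1 (3.73% to 5.38%). Efnb3 was at -0.02 without sesame oil library 16 (0.04 as reported). For Tubb4a the sign was reversed with the GC trend removed (0.0263), and with a library left out it ranged from -0.0328 to 0.03334, above 0 without DHEA library 11 and sesame oil library 9, and the cause was not tested. In the 6 libraries registered together, an alternative chosen after seeing the data, 9 genes had an adjusted p under 0.05, 28 were higher and 0 lower at p under 0.05, 28 were higher without overlap, and the log2 fold change of Tubb4a was 0.04606. Of the 741 values for the 39 genes under the 19 alternatives, 42 crossed to p above 0.05 and 23 to p under 0.05. Of the 23 higher genes 13 had p under 0.05 in all 19, and of the genes with p above 0.05, 6 had it in all 19. No paired analysis was possible because the labels of the groups share no replicate numbers. Depth limits Klk6 most, with a mean count of 20.5, the lowest of the 39.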

Other observations

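Vessel and border genes of the hippocampus were counted in the same way. Of 8 endothelial genes, led by Cldn5 at 20.1 FPKM, 6 had a log2 fold change above 0, 3 were higher at an unadjusted p under 0.05 in edgeR, and the median was 0.12. Of these, Slco1a4, a transporter, and Ly6c1, a surface protein, had groups without overlap, with log2 fold changes of 0.38 ± 0.08 (SE; edgeR adjusted p = 0.203) and 0.43 ± 0.09 (edgeR adjusted p = 0.223), and both were named after their values were seen. Over all genes tested 2.42% were higher without overlap. Flt1 and Cdh5 were below 0, at -0.06 ± 0.06 and -0.02 ± 0.11, and Tek and Esam were nearly level, at 0.03 ± 0.11 and 0.01 ± 0.11. Of 8 mural cell genes, led by Rgs5 at 36.8 FPKM, 7 were above 0, 1 was higher at this p, and the median was 0.08. Meningeal fibroblast genes, led by Igf2 at 38.6 FPKM, had 5 of 9 above 0 and a median of 0.02, with the highest sum in DHEA library 3 (569.8 CPM) and the lowest in DHEA library 4 (247 CPM). Of 7 genes of the thalamus, led by Calb2 at 23.4 FPKM, 6 were above 0, 1 was higher at this p and the median was 0.20. None of these genes had an adjusted p under 0.05.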
